A study of Mus musculus with 20 samples.

Results

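Lysophosphatidic acid (LPA) is a small lipid that signals through receptors on the cell surface. The genes described here are the 6 LPA receptor genes Lpar1, Lpar2, Lpar3, Lpar4, Lpar5 and Lpar6, the gene of autotaxin (Enpp2) and the lipid phosphate phosphatase genes Plpp1 and Plpp3. They were taken by gene symbol, and all 9 were found among the 45777 genes of the expression table.

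RNA from the uteri of 20 B6D2F1 wild-type mice aged 8 to 12 weeks was sequenced, with 1 library per mouse and 5 mice in each of 4 groups. All mice were pregnant, and the uteri were collected at 18:00 on day 3.5, counted from the morning of the vaginal plug as day 0.5. The control group was untreated. The IF (implantation failure) group received 3 mg/kg RU486, an antagonist of the progesterone and glucocorticoid receptors, under the skin on the morning of day 3.5. The PBMC group received the same RU486 injection after 50000 peripheral blood mononuclear cells had been placed in each uterine horn on day 1.5. These cells came from non-pregnant mice and had been cultured for 24 h, and for the PBMC-hCG group the culture contained 5 IU/mL human chorionic gonadotropin (hCG). Uteri given culture medium without cells were not analysed here, so the cells and the intrauterine injection cannot be told apart.

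Autotaxin is a secreted lysophospholipase D that makes LPA outside the cell from lysophosphatidylcholine. LPA1, LPA2 and LPA3 are closely related G protein-coupled receptors, whereas LPA4, LPA5 and LPA6 belong to a separate family near the purinergic receptors. Plpp1 and Plpp3 encode membrane enzymes that remove the phosphate from LPA at the cell surface and so end its signal. In the mouse, loss of Lpar3 delays implantation and crowds the embryos along the uterine horn, and LPA3 is known for its place in the uterine epithelium and for acting through prostaglandin synthesis. Progesterone and estrogen are known to regulate uterine Lpar3.

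Values are TPM, transcript abundances that are corrected for length and scaled to the same total in every library, so levels can be set side by side between genes. The totals lay between 999989 and 999999 per library, so read depth is unknown and no counting interval is given. Between 22702 and 24097 genes were above 0 TPM per library. Differences were fitted as log2(TPM + 0.1) with limma over the 18706 genes above 0 TPM in all 20 libraries, and a gene is said to have risen, fallen or changed where its Benjamini-Hochberg adjusted p-value was under 0.05. All 9 genes were above 0 in every library and were tested. Uterine stroma, myometrium and epithelium markers were detected in every group, and of 7 embryo markers 6 were at no more than 0.518 TPM in any mouse, with Nanog, Cdx2 and Pou5f1 each at 0 in every mouse of at least 1 group, while Gata6 was at 6.93 to 11.7 TPM. Control mouse 2 and IF mouse 5 stood apart in adipose markers, whose 6 genes summed to 413 and 121 TPM against 12.9 to 53.4 TPM in the other mice. Control mouse 2 was also the mouse least like its group, with a median correlation of 0.963 with the other control mice, against 0.980 to 0.990 for the other 19 mice within their groups. Results that rest on these 2 mice are given with and without them.

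Positions are those of GRCm38, the assembly of mm10. Lpar3 (NCBI gene 65086, chromosome 3, 146220961 to 146286214, plus strand), Plpp3 (NCBI gene 67916, chromosome 4, 105157347 to 105232767, plus strand) and Lpar1 (NCBI gene 14745, chromosome 4, 58435252 to 58554027, minus strand) are the members on which most of the results turn. Enpp2 (NCBI gene 18606) lies on chromosome 15 from 54838901 to 54952789 on the minus strand, and Plpp1 (NCBI gene 19012) on chromosome 13 from 112800777 to 112867894 on the plus strand. Lpar6 (NCBI gene 67168, chromosome 14, 73237891 to 73240358) lies within Rb1 on the opposite strand, and exons of Rb1 transcripts overlap it. Enpp2 and Plpp1 also overlap a gene on the opposite strand in part, Gm26684 and Mtrex respectively. The library kit keeps the strand, but whether the strand was used for quantification is not given in the sources used here, so reads of these pairs may have been shared.

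The promoters of Plpp3, which changed in IF against control, and of Lpar3, which changed in PBMC-hCG against IF, are shown. RU486 is a ligand of steroid receptors. Both groups in the latter comparison received it, and Lpar3 did not pass in IF against control. The promoter windows of Lpar1, which also changed in IF against control, are not shown. Each sequence is the 250 bases before the transcription start from RefSeq (GRCm38.p6), 5′ to 3′ on the gene's own strand, at chr3:146220711-146220960 for Lpar3 and chr4:105157097-105157346 for Plpp3. Capitals mark matches on either strand to AGAACA (the core bound by progesterone and glucocorticoid receptors), GGTCA (the core bound by estrogen receptors) or GGGCGG (the GC box).
Lpar3: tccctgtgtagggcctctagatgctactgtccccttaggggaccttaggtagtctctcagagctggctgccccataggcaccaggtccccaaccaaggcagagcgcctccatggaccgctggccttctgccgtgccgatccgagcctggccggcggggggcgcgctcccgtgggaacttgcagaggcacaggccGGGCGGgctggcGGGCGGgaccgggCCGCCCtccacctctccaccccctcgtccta
Plpp3: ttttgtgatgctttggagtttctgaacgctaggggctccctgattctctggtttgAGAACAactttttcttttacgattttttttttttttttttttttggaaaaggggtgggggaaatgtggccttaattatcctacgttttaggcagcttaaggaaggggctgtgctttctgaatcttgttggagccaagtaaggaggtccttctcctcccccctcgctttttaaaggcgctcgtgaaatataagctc
The Lpar3 window was 69.6% G and C, against a median of 52.4% over 32851 RefSeq promoters. It held 3 matches to GGGCGG, beginning at positions -56, -44 and -31 from the start, and none to AGAACA or GGTCA. The Plpp3 window was 42.4% G and C and held 1 match to AGAACA, beginning at position -195, with none to GGTCA or GGGCGG. Over all promoters, 16.1% held AGAACA, 35.2% held GGTCA and 32.7% held GGGCGG, so each of these matches is common. TATAAA, the TATA box, was searched too and was in neither window, against 12.4% of all promoters. A promoter sequence was found for 7 of the 9 genes, and Enpp2 and Plpp1 had no entry.

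Among the receptors, Lpar1 and Lpar6 were the most abundant and Lpar5 the least. Over the 20 mice, Lpar1 was at 47.7 TPM on average, Lpar6 at 41.9, Lpar3 at 15.9, Lpar4 at 4.0, Lpar2 at 3.49 and Lpar5 at 1.82 TPM. Lpar1 was higher than 82.1% of the tested genes and Lpar5 higher than 21.5%. Of the enzymes, Plpp3 was at 283 TPM, above 97.7% of tested genes, Plpp1 at 58.3 TPM and Enpp2 at 47.2 TPM, close to Lpar1. Lpar3 had the widest range of the receptors for its level, from 3.27 TPM in IF mouse 5 to 31.8 TPM in PBMC-hCG mouse 3. These are levels of whole uteri, where fewer cells of a type and less RNA per cell cannot be told apart.

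**Figure D1:**
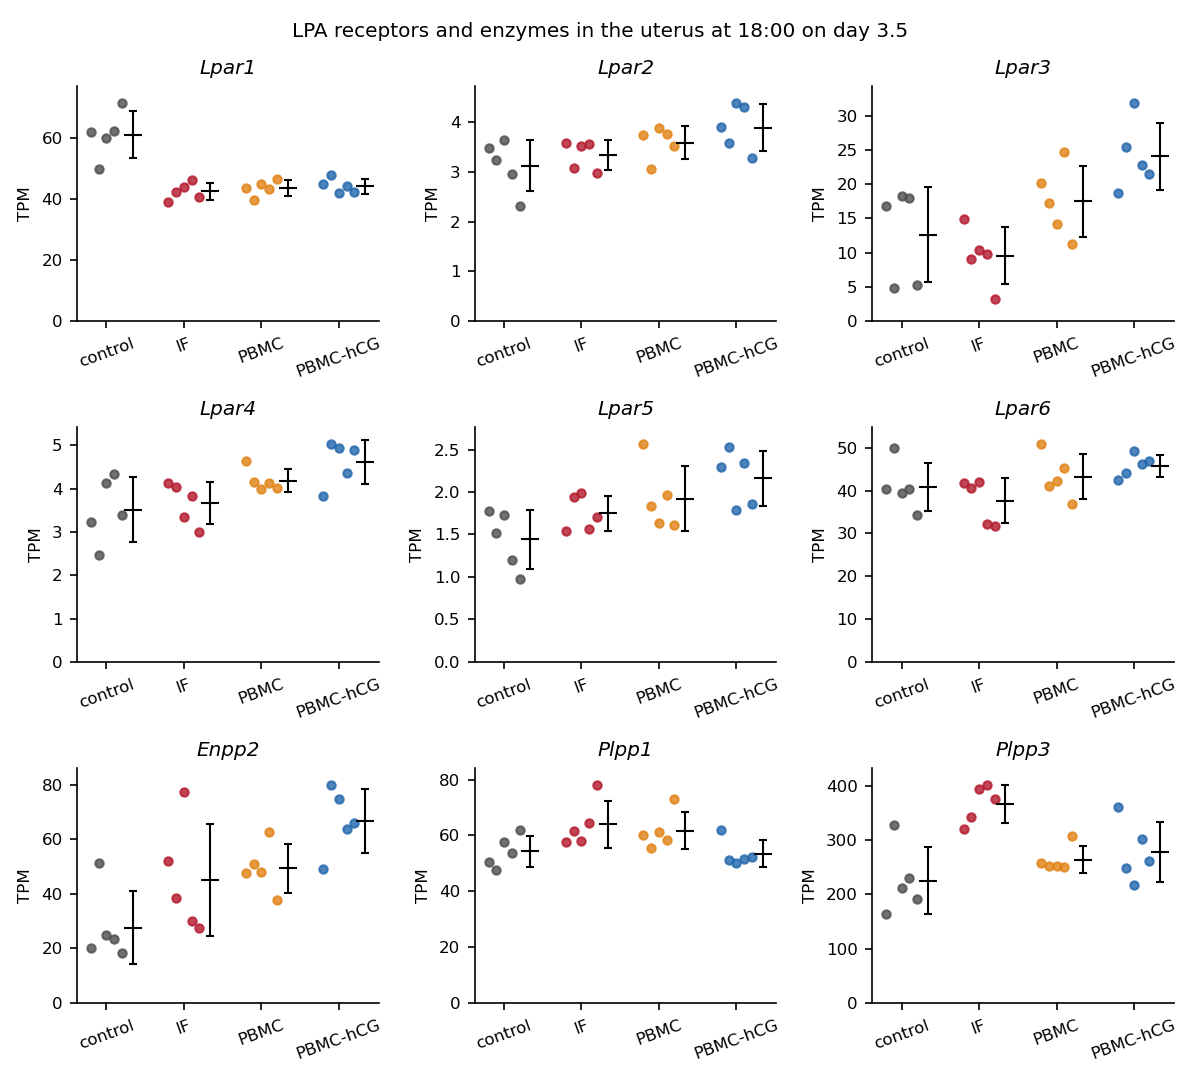
TPM of the 9 genes (vertical axis, each from 0) in each mouse, with the groups ordered control, IF, PBMC, PBMC-hCG. Points are mice 1 to 5 from left to right, and bars are the mean and SD of 5 mice. Lpar1 separates the control mice from all others, the mean of Plpp3 is highest in IF mice, and the means of Lpar3 and Enpp2 are highest in the PBMC-hCG group.

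The first comparison, IF against control, shows the effect of RU486 in the pregnant uterus. Here 2 of the 9 genes changed: Lpar1 fell and Plpp3 rose. Of all tested genes, 21.9% changed, so the share of these genes is close to that of the whole table. The median log2 fold change of the 9 genes was 0.10, against 0.02 over all tested genes. Neither gene reached a fold change of at least 2 with a raw p-value under 0.05, which 4.03% of genes met. These cut-offs, called the study's criteria below, are those of the study but were applied here to the limma fit. The study applied them to an exact test on counts, so its own calls differ.

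Lpar1, a receptor found widely in mesenchymal cells, was at 61.7, 49.6, 59.8, 62.0 and 71.2 TPM in control mice 1 to 5 and at 39.0, 42.3, 43.9, 46.0 and 40.6 TPM in the IF mice. In the PBMC group it was at 43.4, 39.6, 45.0, 43.1 and 46.4 TPM, and in the PBMC-hCG group at 44.7, 47.9, 41.9, 44.1 and 42.1 TPM. All 15 mice given RU486 lay below the lowest control mouse, and the 3 RU486 groups overlapped each other. The mean fell from 60.9 ± 7.70 TPM to 42.4 ± 2.75 TPM between control and IF (SD, n = 5 each), log2 fold change -0.51 (SE 0.08, adjusted p = 8.35e-05). Against control, the log2 fold change was -0.48 in the PBMC group (adjusted p = 0.000207) and -0.46 in the PBMC-hCG group (adjusted p = 0.00022). Lpar1 remained called in each of these comparisons with any mouse left out. Between the RU486 groups it did not pass, with a log2 difference of 0.06 between PBMC-hCG and IF (95% confidence interval -0.10 to 0.22). Of all tested genes, 21.9% changed in IF, 19.5% in PBMC and 31.8% in PBMC-hCG mice against control. Of 9 myometrium markers, 1 fell in IF, 0 in PBMC and 5 in PBMC-hCG mice against control, and none rose. Their summed level was 6348 to 11682 TPM in control, 6427 to 7882 in IF, 6223 to 7643 in PBMC and 5185 to 6536 TPM in PBMC-hCG mice. Of 10 endometrial stroma markers, 3 rose and 1 fell in IF mice against control. In the PBMC group and in the PBMC-hCG group 4 rose and 2 fell. The medians of the stroma marker sum were 9074, 10063, 10774 and 10388 TPM in control, IF, PBMC and PBMC-hCG mice. The part of myometrium and stroma cells in the level of Lpar1 was not tested.

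Plpp3 encodes the phosphatase that carries much of the LPA breakdown in vessels and other tissues. It was at 165, 327, 211, 230 and 192 TPM in control and at 320, 342, 394, 401 and 375 TPM in IF mice. Only control mouse 2, the mouse high in adipose markers, reached into the range of the IF group. The means were 225 ± 61.9 and 366 ± 34.4 TPM (SD, n = 5 each), log2 fold change 0.74 (SE 0.15, adjusted p = 0.00144). With any mouse left out the log2 fold change lay between 0.64 and 0.88 and stayed called. The second phosphatase, Plpp1, moved less: it was at 47.5 to 61.9 TPM (median 53.8) in control and at 57.7 to 77.9 TPM (median 61.6) in IF mice. Its log2 fold change of 0.23 did not pass (adjusted p = 0.0797). It passed in 1 of the 20 fits with 1 mouse left out, that without control mouse 5 (0.28, adjusted p = 0.0423). Over all 20 the log2 fold change went down to 0.16 and the adjusted p-value up to 0.223. Both phosphatases together summed to 279 ± 59.0 TPM without and 430 ± 37.6 TPM with RU486 (control against IF, SD over 5 mice).

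Enpp2, the source of extracellular LPA, was at 20.1, 51.2, 24.8, 23.4 and 18.5 TPM in control mice and at 52.2, 38.4, 77.4, 30.2 and 27.5 TPM in IF mice. Control mouse 2 alone overlapped the IF mice, since the other 4 control mice lay below all of them. Its log2 fold change was 0.71 with a 95% confidence interval of 0.14 to 1.27, and it did not pass (adjusted p = 0.0694). It passed without control mouse 2 (0.96, adjusted p = 0.0055), without IF mouse 4 (0.82, adjusted p = 0.0485) and without IF mouse 5 (0.86, adjusted p = 0.0374). These were 3 of the 20 fits with 1 mouse left out. Over all 20 the adjusted p-value went up to 0.187 and the log2 fold change down to 0.49. Without both mice high in adipose markers it was 1.11 (adjusted p = 0.00186). Enpp2 is known to be expressed in adipose tissue, and control mouse 2 held the highest sum of adipose markers. In IF mouse 5, which was next in these markers, Enpp2 was the lowest of its group. The sum of 7 glandular epithelium markers reached 23971 TPM in control mouse 2 (group median 1575) and 12221 TPM in IF mouse 3 (group median 2919). These mice had the most Enpp2 in their groups. Most of the sum came from Prss28, Prss29 and Spink1, at 4739, 13969 and 5211 TPM in control mouse 2. Aldh1a1 was also highest in these mice within their groups, and Foxa2 was not. Cxcl15 and Wfdc3 went the other way, as the lowest of their groups (0.394 and 9.06 TPM in control mouse 2, 2.33 and 7.42 TPM in IF mouse 3). In the PBMC group mouse 4 had the highest gland sum (3775 TPM), the highest adipose sum (53.4 TPM) and the most Enpp2 (62.6 TPM). In the PBMC-hCG group the highest gland and adipose sums were those of mouse 4 (10201 and 35.1 TPM) and the most Enpp2 was in mouse 2. In IF against control 1 of the 7 gland markers fell and none rose, and none changed in PBMC-hCG against IF. Of all tested genes, 21.9% and 13.6% changed in these comparisons. The part of adipose and gland cells in the level of Enpp2 was not tested.

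Blood and lymphatic vessel markers rose together in IF mice, with 8 of 9 blood endothelium markers and 3 of 5 lymphatic markers higher than in control and none lower. Of all tested genes, 21.9% changed in this comparison. The sum of the blood endothelium markers was 474 to 587 TPM in control mice, 649 to 744 in IF, 652 to 779 in PBMC and 749 to 866 TPM in PBMC-hCG mice. The part of these cells in the levels of Plpp3 and Enpp2 was not tested. The medians of this sum were 573, 700, 721 and 796 TPM in control, IF, PBMC and PBMC-hCG mice, and the means of Enpp2 lay in the same order (27.6, 45.1, 49.4 and 66.7 TPM), while those of Plpp3 did not (225, 366, 264 and 278 TPM).

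The other receptors differed little between IF and control. Lpar6 was at 34.4 to 49.9 TPM in control and at 31.7 to 41.9 TPM in IF mice, and its log2 fold change was -0.12 (adjusted p = 0.452). Lpar3 was at 16.8, 4.85, 18.3, 17.9 and 5.24 TPM in control and at 15.0, 9.08, 10.4, 9.80 and 3.27 TPM in IF mice. The control mice fell apart into mice 1, 3 and 4, at 16.8 TPM or more, and mice 2 and 5, at 5.24 TPM or less, so that the control range overlapped nearly all of the IF range. The log2 fold change was -0.32, with a 95% confidence interval from -1.17 to 0.52. It was 0.02 without IF mouse 5. Lpar2, Lpar4 and Lpar5 had log2 fold changes of 0.10, 0.08 and 0.29, and none passed.

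The second comparison, PBMC against IF, covers mice that had all received RU486. The IF mice had no intrauterine injection, so the cells and the injection cannot be told apart here. None of the 9 genes passed, and 0% of all tested genes did: limma called 0 genes, with 1271 at an unadjusted p under 0.05. By the study's criteria 0.438% of genes changed, and none of the 9 was among them. Lpar3 and Plpp3 had unadjusted p-values under 0.05. Lpar3 was at 20.1, 17.2, 14.2, 24.7 and 11.2 TPM in PBMC mice, and PBMC mice 3 and 5 overlapped the IF group. The log2 difference was 0.97 (95% confidence interval 0.13 to 1.81, adjusted p = 0.701). Plpp3 was at 257, 252.1, 252.1, 249.6 and 308 TPM, and all PBMC mice lay below all IF mice. Its log2 difference was -0.47 (95% confidence interval -0.78 to -0.16, adjusted p = 0.623).

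The third comparison, PBMC-hCG against IF, covers RU486-treated mice with and without an intrauterine injection of hCG-cultured PBMCs. The cells, the hCG culture and the injection cannot be told apart in it. Lpar3 was the 1 member of the 9 that changed, against 13.6% of all tested genes. It also met the study's criteria, as did 2.31% of genes. The median log2 fold change over the 9 genes was 0.29, against 0.05 over all tested genes. Each of the 6 receptors had a higher mean in PBMC-hCG than in IF mice, but 5 of these differences did not pass.

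Lpar3 was at 18.8, 25.4, 31.8, 22.9 and 21.5 TPM in PBMC-hCG mice. Every one of these mice lay above the highest IF mouse (15.0 TPM) and above the highest control mouse (18.3 TPM). In order of their means, the groups were IF at 9.51 ± 4.17, control at 12.6 ± 6.95, PBMC at 17.5 ± 5.24 and PBMC-hCG at 24.1 ± 4.94 TPM (SD, n = 5 each). Between PBMC-hCG and IF the log2 fold change was 1.46 (SE 0.40, adjusted p = 0.0334), or 2.75-fold with a 95% confidence interval of 1.53 to 4.93. Neighbouring groups in this order did not differ beyond their spread: IF and control, control and PBMC (log2 difference 0.65, adjusted p = 0.29), and PBMC and PBMC-hCG (0.49, adjusted p = 0.514). Between PBMC-hCG and control the log2 fold change was 1.14 (adjusted p = 0.0379).

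The adjusted p-value of Lpar3 was close to the threshold and depended on single mice. Against IF it lay between 0.0612 and 0.111 when IF mouse 2, 4 or 5 or PBMC-hCG mouse 2, 3, 4 or 5 was left out, and it stayed under the threshold when any of the other 13 mice was left out. The smallest log2 fold change was 1.12, without IF mouse 5. Under the same omissions the number of called genes in the whole table fell from 2544 to between 0 and 34. Without control mouse 2 and IF mouse 5 together, the log2 fold change was also 1.12 (adjusted p = 0.0682). Against control, the call was lost without control mouse 2 (0.85, adjusted p = 0.0893), control mouse 5 (0.88, adjusted p = 0.115) or PBMC-hCG mouse 2, 3, 4 or 5, but not without both mice high in adipose markers (0.85, adjusted p = 0.0379).

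**Figure D2:**
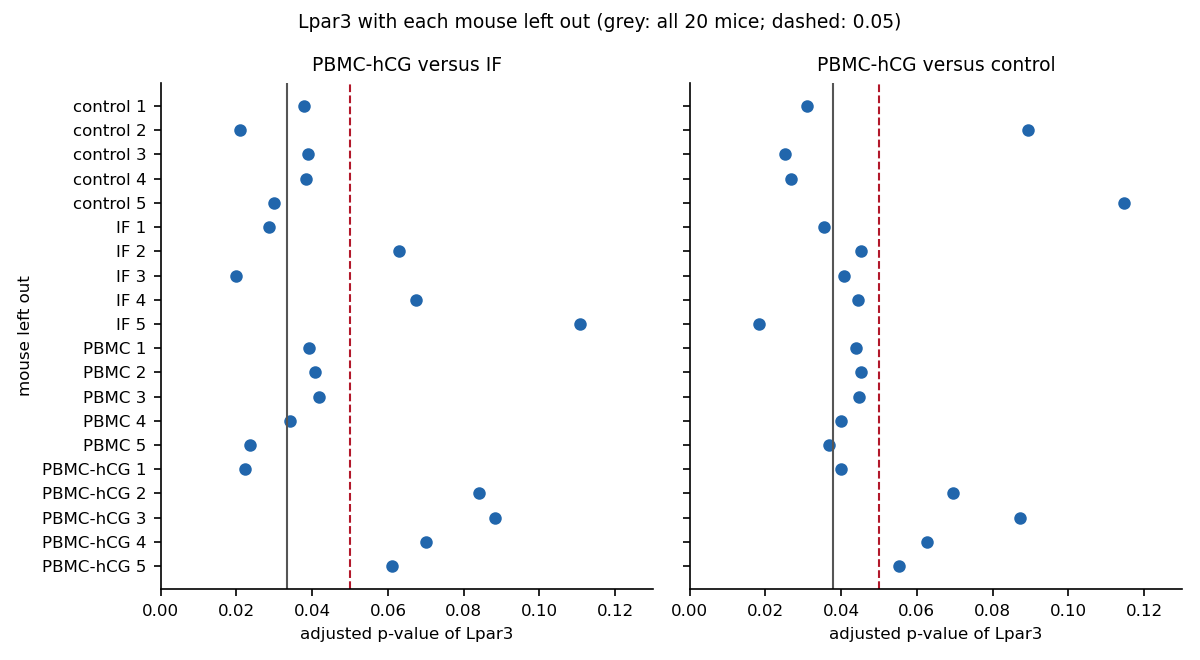
Adjusted p-value of Lpar3 (horizontal axis) with each of the 20 mice left out in turn (vertical axis), for PBMC-hCG against IF and against control. The grey line is the value with all mice (0.0334 and 0.0379) and the dashed line is 0.05. Omission of IF mouse 5 moved the p-value most against IF, to 0.111, and omission of control mouse 5 moved it most against control, to 0.115.

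Epithelial markers were examined beside Lpar3 because this receptor is known from the uterine epithelium. The sum of 11 luminal and general epithelium markers was 848 to 1524 TPM in control mice (median 1122), 1216 to 1546 in IF (median 1254), 1230 to 1584 in PBMC (median 1317) and 1277 to 1652 TPM in PBMC-hCG mice (median 1528). In IF mice, 7 of the 11 rose and 1 fell against control, and in PBMC-hCG mice 1 rose against IF. Of all tested genes, 21.9% and 13.6% changed in these comparisons. The groups overlapped in this sum, while Lpar3 did not overlap between PBMC-hCG and IF mice. The part of epithelial cells in the level of Lpar3 was not tested.

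Lpar6, a receptor known for its part in hair growth, was at 42.5, 44.1, 49.2, 46.1 and 46.9 TPM in PBMC-hCG mice and at 41.8, 40.6, 41.9, 32.1 and 31.7 TPM in IF mice. The groups did not overlap, but by less than 1 TPM, and the log2 difference of 0.29 did not pass (adjusted p = 0.0623). It passed without control mouse 2, IF mouse 3, PBMC mouse 5 or PBMC-hCG mouse 1 (adjusted p from 0.0328 to 0.0486, with log2 differences up to 0.33). These were 4 of the 20 fits with 1 mouse left out. Over all 20 the log2 difference went down to 0.23 and the adjusted p-value up to 0.192. Control mouse 2 and PBMC mouse 5 are in neither of the 2 groups, and without them the log2 difference stayed at 0.29. Only the shared estimate of the spread, the genes tested and the adjustment could move with them. The other receptors had log2 differences of 0.32 for Lpar4 (adjusted p = 0.107), 0.29 for Lpar5 (adjusted p = 0.227), 0.21 for Lpar2 (adjusted p = 0.238) and 0.06 for Lpar1 (adjusted p = 0.604). Their confidence intervals reached at most 0.64 on the log2 scale, so a fold change of 2 in any of them was outside the interval.

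For the enzymes, the PBMC-hCG group had more Enpp2 and less Plpp1 and Plpp3 than the IF group, without passing. Enpp2 was at 49.2, 79.8, 74.9, 63.8 and 66.0 TPM, and IF mice 1 and 3 lay inside that range. Its log2 difference from IF was 0.65 (adjusted p = 0.0979), and it passed without control mouse 2 (adjusted p = 0.0443) or IF mouse 3 (0.87, adjusted p = 0.02). Plpp3 was at 360, 249, 217, 302 and 261 TPM, and PBMC-hCG mouse 1 alone lay within the IF range. Its log2 difference was -0.42 (adjusted p = 0.063), and -0.51 without PBMC-hCG mouse 1 (adjusted p = 0.0222). Plpp1 was at 62.0, 51.2, 49.99, 51.4 and 52.4 TPM, where mouse 1 again stood with the IF mice. Its log2 difference was -0.25 (adjusted p = 0.0677), and -0.31 without that mouse (adjusted p = 0.0286). Plpp1 also passed without control mouse 2, IF mouse 3 or PBMC mouse 5, and Plpp3 also passed without control mouse 2. Omission of control mouse 2 or PBMC mouse 5, which are in neither group, left the log2 differences of these 3 enzymes unchanged. Of the 20 fits with 1 mouse left out, Enpp2 passed in 2, Plpp3 in 2 and Plpp1 in 4. The log2 differences smallest in size were 0.50, -0.33 and -0.18, and the adjusted p-values reached 0.271, 0.162 and 0.215, in that order. Without control mouse 2 and IF mouse 5 together none of the 3 passed.

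**Figure D3:**
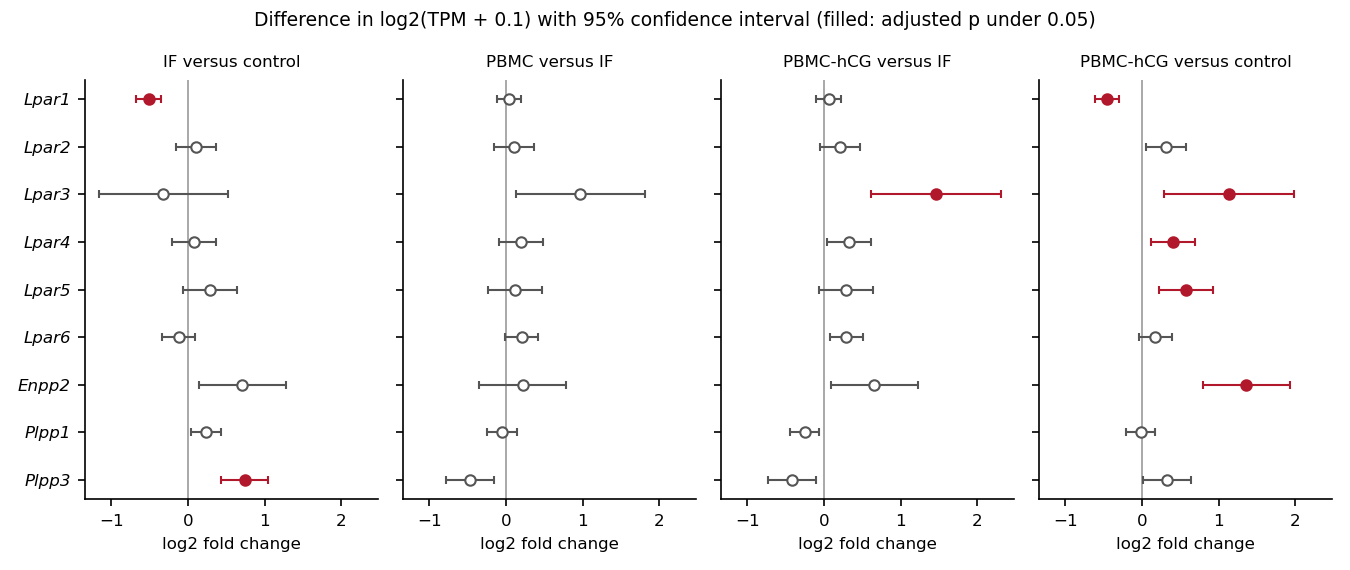
Log2 fold change of each gene (horizontal axis) with its 95% confidence interval in 4 of the comparisons, from limma on log2(TPM + 0.1). Filled points have an adjusted p-value under 0.05: Lpar1 and Plpp3 in IF against control, none in PBMC against IF, Lpar3 in PBMC-hCG against IF, and 5 genes in PBMC-hCG against control.

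The fourth comparison, PBMC-hCG against PBMC, shows what hCG in the culture added. None of the 9 genes passed, and 0.0107% of all tested genes did, which is 2 genes, with 3024 at an unadjusted p under 0.05. By the study's criteria 0.893% of genes and none of the 9 changed. The difference with the smallest p was that of Plpp1, at 60.1, 55.7, 61.3, 58.4 and 73.2 TPM in PBMC mice, where the log2 difference was -0.21 (95% confidence interval -0.40 to -0.01, adjusted p = 0.296). For Lpar3 the interval ran from -0.36 to 1.33 and for Enpp2 from -0.13 to 0.999 on the log2 scale, so sizeable differences in both directions were within the interval of Lpar3.

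The last comparisons set the treated groups against the same control mice, so their results are not independent of each other or of the comparison of IF with control. Between PBMC and control 2 of the 9 genes changed, against 19.5% of tested genes: Lpar1 fell, and Enpp2 rose by 0.93 on the log2 scale (adjusted p = 0.0209). By the study's criteria none of the 9 and 3.34% of genes changed. Enpp2 was at 47.8, 51.2, 48.0, 62.6 and 37.6 TPM in PBMC mice, above every control mouse but control 2. Its call was lost without control mouse 1 (adjusted p = 0.0538), control mouse 5 (0.0586) or PBMC mouse 4 (0.0567).

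Between PBMC-hCG and control 5 of the 9 genes changed, against 31.8% of tested genes. Enpp2 rose from 27.6 ± 13.4 to 66.7 ± 11.8 TPM (SD, n = 5 each), log2 fold change 1.36 (SE 0.27, adjusted p = 0.00104), and stayed called with any mouse left out. Lpar3 rose as given above, and Enpp2 and Lpar3 met the study's criteria, as did 4.74% of genes. The low-abundance receptors Lpar4 and Lpar5 rose by smaller amounts. Lpar5, known from immune cells and platelets, was at 1.78, 1.52, 1.73, 1.20 and 0.974 TPM in control mice and at 2.29, 2.53, 1.78, 2.35 and 1.86 TPM in PBMC-hCG mice, which lay just above the control range. Its log2 fold change was 0.57 (adjusted p = 0.0141). Lpar4, known from vessels, was at 3.22, 2.47, 4.13, 4.33 and 3.40 TPM in control and at 3.83, 5.03, 4.95, 4.36 and 4.89 TPM in PBMC-hCG mice, which overlapped. Its log2 fold change was 0.40 (adjusted p = 0.0321), and the call was lost without control mouse 1, 2 or 5 or PBMC-hCG mouse 2, 3 or 5 (adjusted p from 0.0595 to 0.0742). Without both mice high in adipose markers Lpar4 did not pass (0.29, adjusted p = 0.0563), while Lpar6 did (0.25, adjusted p = 0.0407, against 0.17 and 0.221 with all mice). Plpp3 did not pass (0.32, adjusted p = 0.104), but passed without control mouse 2 in this comparison (0.47, adjusted p = 0.00598) and in that of PBMC with control (0.41, adjusted p = 0.0209). Lpar2 (0.31, adjusted p = 0.0618) passed without control mouse 3 or PBMC-hCG mouse 5 (both 0.37, adjusted p = 0.0415 and 0.042). These were the only calls of Plpp3 and Lpar2 against control in these groups among the 20 fits with 1 mouse left out. The adjusted p-values of Plpp3 reached 0.274 in PBMC-hCG and 0.498 in PBMC against control, and that of Lpar2 reached 0.186 in PBMC-hCG against control.

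Of these 9 genes, immune cells could carry several, and 10 markers of T, B and NK cells summed to 74.4 to 84.4 TPM in control, 66.4 to 117 in IF, 61.9 to 108 in PBMC and 90.0 to 126 TPM in PBMC-hCG mice. Against IF, none of the 8 that were tested changed in the PBMC or PBMC-hCG group. Against control, 2 rose in the PBMC-hCG group. Myeloid markers summed to 675 to 1014 TPM over all mice. Against control, 4 of 10 rose in IF and in PBMC-hCG mice, where 21.9% and 31.8% of all tested genes changed. Red cell and platelet markers summed to 361 to 1830 TPM. In PBMC-hCG mice 2 of 7 fell against IF, where 13.6% of all tested genes changed. The part of these cells in the level of Lpar5 was not tested.

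The make-up of the receptor RNA differed between groups, as a description of levels with no test. The 6 receptors summed to 122 ± 7.56 TPM in control, 98.3 ± 9.06 in IF, 114 ± 9.71 in PBMC and 125 ± 6.97 TPM in PBMC-hCG mice (SD, n = 5 each). All 5 IF mice, at 83.2 to 105 TPM, lay below all control and PBMC-hCG mice, at 112 to 134 TPM. Lpar1 made up 49.8% of the sum in control, 43.4% in IF, 38.4% in PBMC and 35.5% in PBMC-hCG mice. The share of Lpar3 was 10.1%, 9.44%, 15.2% and 19.2% in the same order, with PBMC-hCG mice at 16.2% to 23.7% and IF mice at 3.93% to 14.2%. The group means of Lpar6 lay between 33.6% and 38.2%, with single mice from 29.3% to 44.7%, both of these in the control group. Among the enzymes, there were 9.56 TPM of Enpp2 per 100 TPM of both phosphatases in control, 10.6 in IF, 15.4 in PBMC and 21.1 in PBMC-hCG mice. The receptor sums of control and PBMC-hCG mice overlapped, while the shares of Lpar1 did not.

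**Figure D4:**
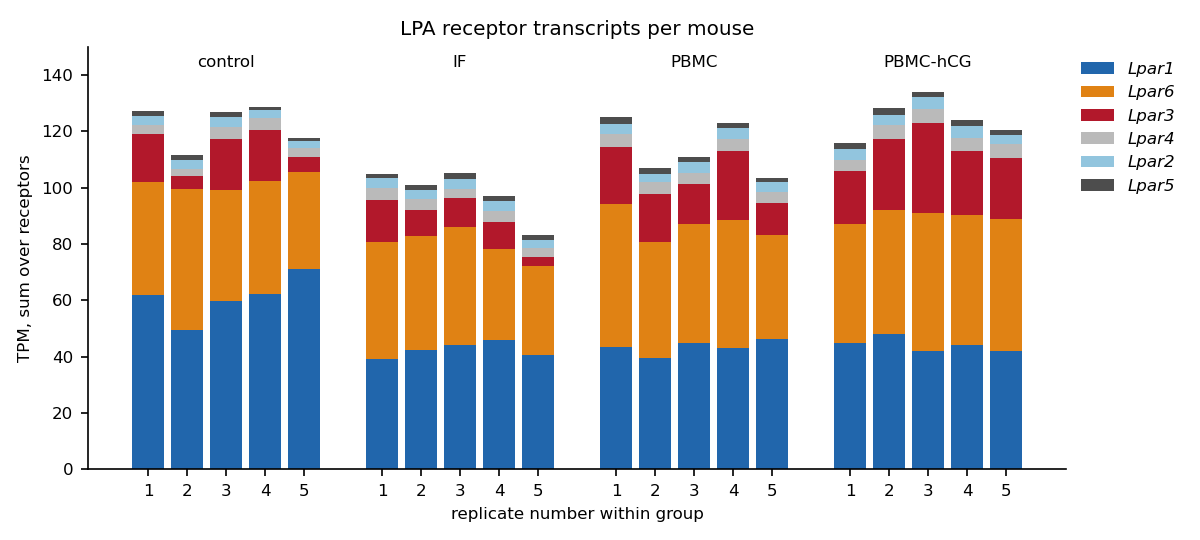
Stacked TPM of the 6 LPA receptor genes (vertical axis, from 0) in each of the 20 mice (horizontal axis, replicate number within group). The IF bars, at 83.2 to 105 TPM, lie below all control and PBMC-hCG bars, the Lpar1 part is tallest in control mice, and the Lpar3 part is on average tallest in PBMC-hCG mice.

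Lpar3 and Enpp2 each followed other genes closely across mice, which is given as a description with no test, since the points share their groups and libraries. Among 15771 tested genes with a mean of at least 1 TPM, the highest Pearson correlations with Lpar3 over the 20 mice were those of Hddc2 (0.960), Shtn1 (0.957), Crybg3 (0.946), Capn1 (0.940), Dnah1 (0.926), Frem2 (0.925), Mecom (0.925) and Sytl4 (0.924). When the group means were taken out, the correlations were 0.89 to 0.95. These genes, like those of Enpp2 below, were picked for their correlation over the same 20 mice, so these values are no separate evidence. They were not computed without control mouse 2 and IF mouse 5. Hddc2 was at 54.1 TPM in control, 43.4 in IF, 58.7 in PBMC and 67.2 TPM in PBMC-hCG mice, the same order of groups as Lpar3 but with smaller differences. For Enpp2 the closest genes were Hdac5 (0.98), Ccn3 (0.974), Ppp2r5a (0.969), Abca6 (0.967) and Tcp11l2 (0.963), and 0.92 to 0.97 with the group means taken out. Abca6 was at 9.25, 17.1, 18.4 and 26.2 TPM in control, IF, PBMC and PBMC-hCG mice.

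Within groups, Lpar3 was also compared with each of the other 8 genes over the 20 mice, using deviations from the group means and permutations within groups. Lpar4 had the highest correlation (Pearson r = 0.72, permutation p = 0.00382, adjusted over the 8 relations p = 0.0306, and Spearman correlation 0.635, permutation p = 0.0166, adjusted p = 0.118). Control mouse 2 and IF mouse 5, the mice farthest from the median, were then left out of the correlation but kept in the group means. The coefficient of Lpar4 fell to r = 0.525. Plpp1 (-0.639), Lpar2 (0.619), Lpar6 (0.577) and Lpar1 (-0.540, from 0.0352 over all mice) then had larger coefficients in size. Because the group means were not recomputed, shifts between groups can enter these coefficients. Lpar4 did not keep the highest rank in this calculation. The other 7 relations had adjusted p-values of 0.128 or more for Pearson and 0.118 or more for Spearman. This choice was made after the values had been seen.

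The rest of the pathway was described with gene lists. Their counts stand beside 21.9% of all tested genes that changed in IF against control and 13.6% in PBMC-hCG against IF. The list of genes known to depend on LPA3 in the uterus held Ptgs2 and Ptges, which make prostaglandin E2, Hbegf, a growth factor of the attachment site, and Wnt4 and Bmp2, which act in decidualization. In IF mice 3 of the 5 rose against control and in PBMC-hCG mice 4 of the 5 fell against IF, while none passed in the comparison of PBMC with IF. Their median log2 fold change was 0.94 in IF against control and -1.28 in PBMC-hCG against IF, against 0.02 and 0.05 over all tested genes. Lpar3 went the other way in the latter comparison. Wnt4 is also among the estrogen-responsive genes on which the study reports, so its direction here is no independent evidence.

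Wnt4 was at 3.12 to 7.05 TPM in control mice and at 27.1, 25.2, 11.4, 19.99 and 43.6 TPM in IF mice, with no overlap (log2 fold change 2.27, adjusted p = 0.000641). In PBMC-hCG mice it was at 23.3, 6.70, 6.18, 6.995 and 7.79 TPM, so mouse 1 stayed in the IF range and the others lay below it. The log2 difference from IF was -1.39 (adjusted p = 0.0392). Hbegf was at 3.97 to 6.43 TPM in control, 7.15 to 14.3 in IF and 3.43 to 5.37 TPM in PBMC-hCG mice, without overlap between IF and either group. Its log2 fold changes were 0.94 in IF against control (adjusted p = 0.0197) and -1.28 in PBMC-hCG against IF (adjusted p = 0.0258). Ptges rose by 0.72 (adjusted p = 0.0237) and fell by 0.74 (adjusted p = 0.039) in the same comparisons. Ptgs2, near the low end of detection at 0.432 to 1.90 TPM in PBMC-hCG mice, fell by 1.87 on the log2 scale against IF (adjusted p = 0.0385), and its difference of 1.14 between IF and control did not pass (adjusted p = 0.153). Bmp2 passed in neither comparison (0.59 and -0.00).

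These calls in PBMC-hCG against IF shared the dependence of Lpar3 on single mice. With each mouse left out, between 0 and 4 of the 5 genes fell, and without control mouse 2 and IF mouse 5 none did, although Hbegf kept a log2 difference of -1.15 (adjusted p = 0.0682). In IF against control, between 1 and 4 rose with each mouse left out and 2 rose without both mice. In PBMC mouse 5 these genes were the highest of the 5 PBMC mice except Bmp2, with Ptgs2 at 10.7 and Wnt4 at 54.4 TPM, and Lpar3 was the lowest of that group at 11.2 TPM.

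Other enzymes that make LPA showed few changes. Of 10 genes listed, among them the phosphatidic acid phospholipases and lysophospholipase D genes, 7 were tested and none changed in IF mice, while Lcat, the cholesterol acyltransferase of plasma that releases lysophosphatidylcholine, fell in PBMC-hCG against IF (-0.72, adjusted p = 0.0416). Of 4 glycerol-3-phosphate acyltransferase genes, which make LPA inside the cell, 3 were tested. None changed in IF mice, although 2 rose without control mouse 2 and IF mouse 5. Gpat4 fell in PBMC-hCG mice, from 42.2 ± 5.44 to 31.6 ± 4.26 TPM (SD, n = 5 each), by 0.42 on the log2 scale (adjusted p = 0.0258). Of 6 genes listed as turning LPA into phosphatidic acid, Abhd5 rose (0.36, adjusted p = 0.0124) and Agpat4 fell (-0.25, adjusted p = 0.0357) in IF mice, and in PBMC-hCG against IF Agpat4 rose (0.33, adjusted p = 0.0287) and Agpat5 fell (-0.37, adjusted p = 0.046). All of these PBMC-hCG calls were lost without control mouse 2 and IF mouse 5, although the differences stayed of similar size, at -0.35 for Gpat4 and 0.33 for Agpat4 (adjusted p = 0.0682 for both), -0.72 for Lcat (0.0851) and -0.34 for Agpat5 (0.0861). Without both mice Abhd5 and Agpat4 also lost their calls against control (adjusted p = 0.0573 and 0.0902).

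Of 10 other phosphatase genes and relatives, 9 were tested, and 4 fell and none rose in IF mice, where 21.9% of all tested genes changed. Plppr3, a member of this family without known phosphatase activity, was at 18.7 to 23.98 TPM in control and 9.73 to 15.3 TPM in IF mice (log2 fold change -0.77, adjusted p = 0.000349). Acp6, a mitochondrial LPA phosphatase, fell by 0.46 (adjusted p = 0.0322), which did not pass without both mice high in adipose markers (-0.22, adjusted p = 0.17). The others, Plppr1 and Plppr5, were below 1 TPM. In PBMC-hCG against IF, 2 rose: Plppr5 and Plpp6, a presqualene and isoprenoid diphosphate phosphatase, the latter by 0.60 (adjusted p = 0.0456). Without the same mice neither passed (Plpp6 0.48, adjusted p = 0.113). P2ry10 and Gpr35, further receptors reported to respond to LPA, passed in neither comparison.

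Below the receptors, 17 genes of G proteins and the exchange factors, kinases and phospholipases below them were tested, and 6 rose and 1 fell in IF mice. Of all tested genes, 21.9% changed in this comparison. Gnai1, which encodes an inhibitory G protein subunit, was at 33.3 to 51.4 TPM in control and at 23.0 to 29.6 TPM in IF mice, without overlap (log2 fold change -0.83, adjusted p = 1.31e-05). The serine/threonine kinase genes Rock2 (0.53, adjusted p = 0.0108) and Rock1 (0.44, adjusted p = 6.85e-05) and Gna13, which encodes a G protein alpha subunit (0.42, adjusted p = 0.000158), rose without overlap between the groups. In PBMC-hCG against IF, where 13.6% of all tested genes changed, 1 fell, Rock2 (-0.47, adjusted p = 0.0396). Without both mice high in adipose markers, Rock2 passed in neither comparison (0.36, adjusted p = 0.0647, and -0.38, adjusted p = 0.0824), and 5 rose and 2 fell in IF mice. Among 11 target genes of YAP and SRF, which act below G proteins, 10 were tested. In IF mice 2 rose and 1 fell, and none changed in PBMC-hCG against IF, against 21.9% and 13.6% of all tested genes. Axl rose by 0.64 (adjusted p = 3.36e-05) and Fhl2 by 0.40 (adjusted p = 0.00434), while Acta2, a smooth muscle actin gene that is also a myometrium marker, fell by 0.42 (adjusted p = 0.0367). Without both mice high in adipose markers 2 rose and 2 fell, and Acta2 was at -0.59 (adjusted p = 0.00185). The call of Acta2 was lost in 8 of the 20 fits with 1 mouse left out.

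**Figure D5:**
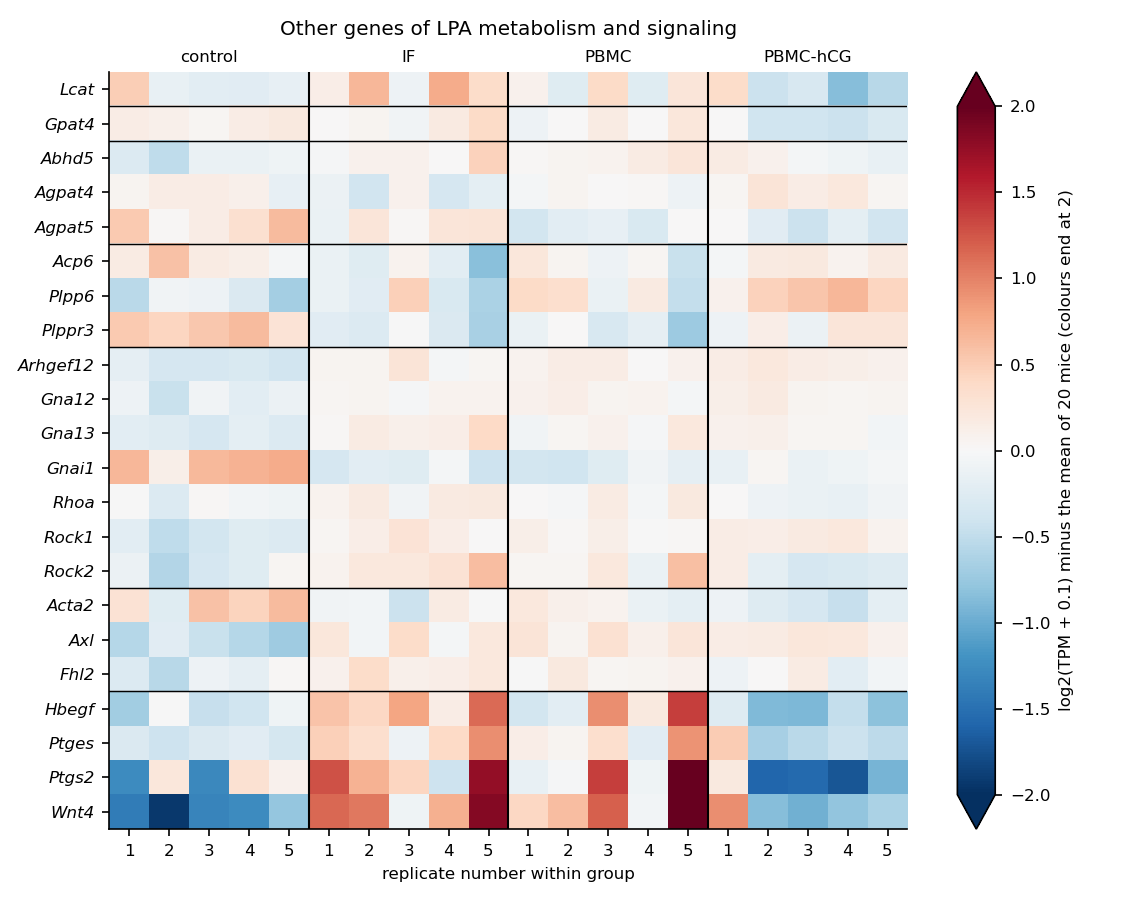
Pathway genes other than the 9 members that changed in IF against control or PBMC-hCG against IF and had a mean of at least 1 TPM, as log2(TPM + 0.1) minus the mean of the 20 mice (colour, ending at 2 in both directions), by mouse. Lines separate the groups of mice and, from top to bottom, other LPA-producing enzymes, acyltransferases of both kinds, other phosphatases, G proteins and their effectors, YAP and SRF targets and LPA3-dependent genes. Wnt4, Ptgs2, Ptges and Hbegf are low in PBMC-hCG mice 2 to 5 and high in IF mouse 5 and PBMC mouse 5.

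As a check of the steroid setting in which these genes were measured, progesterone and estrogen response lists were read in the same fit. Of all tested genes, 21.9% changed in IF against control and 13.6% in PBMC-hCG against IF. Of 13 progesterone-responsive genes tested, 5 fell and 2 rose in IF mice, with Il13ra2 (-4.20, adjusted p = 2.84e-09), Zbtb16 (-3.95, adjusted p = 2.84e-09) and Fst (-1.43, adjusted p = 0.0101) the largest. In PBMC-hCG against IF 3 rose and 2 fell, among them Zbtb16, which rose (0.85, adjusted p = 0.0326), and Fst, which fell (-1.39, adjusted p = 0.0324). Of 15 estrogen-responsive genes, 7 rose and 1 fell in IF mice, and in PBMC-hCG against IF 8 fell and 1 rose. The largest rises in IF mice were those of Inhbb (5.24), Ramp3 (3.20) and Gadd45g (3.04), and these genes fell by 2.03, 1.39 and 1.79 in PBMC-hCG against IF (adjusted p = 0.0287, 0.0385 and 0.0258). Without control mouse 2 and IF mouse 5 neither list held a gene that changed in PBMC-hCG against IF, although the differences of Inhbb (-1.87, adjusted p = 0.0682), Ramp3 (-1.30, 0.0702) and Gadd45g (-1.59, 0.0662) stayed nearly as large. Of 7 reference genes, 1 rose in IF mice (Ywhaz, 0.30), and it fell in PBMC-hCG mice against IF (-0.28).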

How the data were processed

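The uterine RNA of 20 mice was sequenced by the authors from stranded mRNA libraries. Per the labels and the study's methods, reads were trimmed with Trimmomatic, mapped to mm10 with HISAT2 and assembled with StringTie, and the deposited table holds TPM per gene. The exact test that the authors ran on TMM-normalized counts needs counts and was not repeated. Groups and replicate numbers came from the sample labels. Separate mice are taken as replicates. The labels do not say that mice of the same number are paired, and they were treated as unpaired. Deviations from the group means correlated between -0.25 and 0.46 (median -0.01) in 30 same-numbered pairs from different groups. In 120 differently numbered pairs they correlated between -0.41 and 0.57 (median 0.009). Such correlations cannot exclude a pairing.

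log2(TPM + 0.1) was fitted with limma 3.58.1 (R 4.3.3) with a variance trend and all 4 groups in 1 model, for the 18706 genes above 0 TPM in all libraries. Benjamini-Hochberg adjustment was done separately for 6 comparisons. TPM is compositional, and the pseudocount of 0.1 understates changes of low genes. The method was tested on simulated data in which genes were drawn independently of each other. That test cannot show how calls in the real data depend on single mice. Alternatives were other pseudocounts, filters, scalings and fits, a replicate block and each mouse left out. Correlations used SciPy 1.17.1 and figures matplotlib 3.10.9.

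The 9 genes and all lists were chosen with earlier results of these data known. Named genes beyond the 9 were, per pathway list, up to 4 (steroid lists up to 3) with the largest change among genes that passed in IF against control or PBMC-hCG against IF with a mean of at least 1 TPM, and the 8 and 5 genes most correlated with Lpar3 and Enpp2. Hddc2 and Abca6 levels, the genes below 1 TPM, the untested or uncalled list members and Ywhaz were named after their values were seen. No protein sequences are given. Implantation counts, PCR and histology were not analysed here.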

Additional observations from a re-analysis of the deposited data

Results flagged for a closer look

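In each group of 5 mice, the highest and lowest mouse were compared with the rest for the 9 genes by Dixon's test. Of the 36 groups examined 4 held a mouse beyond the 95% critical value. The nominal rate of about 1 in 20 holds for independent groups with normal values. The 36 groups share the same 20 mice, and the share over all tested genes was not computed. The count of 4 is therefore not read as an excess. Enpp2 in control mouse 2 was 51.2 TPM, against 18.5 to 24.8 TPM in the other control mice. This mouse also had the highest adipose marker sum (413 TPM) and the highest gland marker sum (23971 TPM). The gland sum came mostly from Prss28, Prss29 and Spink1, while Cxcl15 and Wfdc3 were the lowest of the group in this mouse. Plpp1 in PBMC-hCG mouse 1 was 62.0 TPM, against 49.99 to 52.4 TPM in the others. Plpp3 in PBMC mouse 5 was 308 TPM, against 250 to 257 TPM in the others, and Lpar3 was the lowest of the PBMC group in the same mouse. Lpar4 in PBMC mouse 1 was 4.64 TPM, against 3.99 to 4.17 TPM in the others. No cause was tested for any of these.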

How the results depend on the processing

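Read depth is unknown, so the limit set by counting on Lpar5 or other low genes cannot be given, and 5 mice per group leave wide intervals for Lpar3 and Enpp2. Over the 9 genes and 6 comparisons, 519 of the values under alternatives other than omission of 1 mouse kept their direction and side of the threshold, 9 lost a call, 10 gained one and 2 changed direction. With each mouse left out these numbers were 1029, 22, 20 and 9. Scaling moved the median of all genes by less than 0.1 on the log2 scale. Lpar1 kept its 3 calls against control under every other setting of the fit, Plpp3 its call in IF against control, and Enpp2 and Lpar5 theirs in PBMC-hCG against control. Lpar4 lost its call in PBMC-hCG against control under quantile normalization (adjusted p = 0.0811), median scaling (0.0583) and the 2-group fit (0.0845), and Lpar3 lost its there without the filter (0.0639) and in the 2-group fit (0.0547). Causes were not tested.

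The study's criteria were also applied to the limma fit in place of the adjusted p-value. By them, 0 of the 9 genes changed in IF against control and 0 in PBMC against control (both 2 otherwise) and 2 in PBMC-hCG against control (5 otherwise). In the whole table these criteria called 754 genes (IF against control, 4104 otherwise), 82 (PBMC against IF, 0), 432 (PBMC-hCG against IF, 2544), 167 (PBMC-hCG against PBMC, 2), 625 (PBMC against control, 3653) and 887 (PBMC-hCG against control, 5941). With genes above 0 TPM in any library, 0 of the 9 (Lpar3 at adjusted p = 0.0557) and 812 genes were called in PBMC-hCG against IF, and 1 in PBMC against IF. With only the compared groups in the fit, 2473 genes were called in IF against control, 2 of the 9 (Lpar3 and Plpp3) in PBMC-hCG against IF and 3 in PBMC-hCG against control. In PBMC-hCG against PBMC, 1 gene was called with a pseudocount of 1 and 1 with a mean of at least 1 TPM.

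Replicate numbers are shared by label only. With a replicate block, 3 of the 9 (Plpp1, Lpar3 and Lpar6) were called in PBMC-hCG against IF, Plpp1 was called in IF against control (adjusted p = 0.0416), and Lpar4 was replaced by Lpar2 in PBMC-hCG against control.

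Without control mouse 2 and IF mouse 5, an alternative chosen after seeing the data, 0 of the 9 and 3 genes in all were called in PBMC-hCG against IF, and 2 uncalled values changed direction (Lpar6 in IF against control 0.0125, Plpp1 in PBMC against IF 0.0253).

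With each mouse left out, the genes called in PBMC-hCG against IF ranged from 0 to 5062 (without IF mouse 5 or PBMC-hCG mouse 3, and without IF mouse 3), in PBMC against IF from 0 to 2 and in PBMC-hCG against PBMC from 2 to 7. Of the 9, 0 to 5 were called in PBMC-hCG against IF, 1 to 3 in PBMC against control and 3 to 6 in PBMC-hCG against control. Uncalled values that changed direction ranged from -0.60 to 0.0174 (Lpar3) and -0.0367 to 0.16 (Lpar4) in IF against control, -0.11 to 0.0253 (Plpp1) in PBMC against IF, -0.0111 to 0.0461 (Lpar1) and -0.0414 to 0.14 (Plpp3) in PBMC-hCG against PBMC, and -0.0753 to 0.0287 (Plpp1) in PBMC-hCG against control.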
